A study of Mus musculus with 6 samples.

Results

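Cholesterol biosynthesis and its transcriptional control were followed through 31 genes, taken by name from a fixed list of mevalonate and sterol synthesis enzymes, enzymes of acetyl-CoA supply, and regulators of the SREBP and LXR pathways. All 31 were found once among the 54551 features measured. RNA was extracted from granulosa cells, the somatic cells of the ovarian follicle that make estradiol and later progesterone, of C57BL/6 mice aged 21 days. Follicles had been stimulated for 48 h with PMSG (5 IU), which acts like follicle-stimulating hormone, and then for 6 h with hCG (5 IU), which acts like luteinizing hormone and triggers ovulation. There were 3 libraries labelled Gm12840-/-, a knockout of a long noncoding RNA gene, and 3 libraries labelled wild type, and both labels shared strain, age and hormone treatment.

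Cells make cholesterol from acetyl-CoA through mevalonate, isoprenoid diphosphates, squalene and lanosterol. The supply is set by SREBP, a membrane-bound transcription factor. When sterols are scarce, the escort protein SCAP carries SREBP to the Golgi, where a pair of proteases frees the part that enters the nucleus and binds promoters of the synthesis genes. When sterols are plentiful, INSIG proteins hold SCAP and SREBP in the endoplasmic reticulum, and LXR, a receptor for oxidised sterols, turns on cholesterol export. In steroid-making cells cholesterol is also the raw material of hormones, and in the mouse follicle cumulus cells, a kind of granulosa cell, supply cholesterol to the oocyte.

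Promoters were looked at because synthesis genes are known to share SREBP sites and the boxes of its partner factors. RefSeq promoter windows of build GRCm38.p6, from 250 bases before to 50 bases after an annotated start, were available for 28 of the 31 genes. Shown are Hmgcs1, the 1 gene with the core sterol regulatory element TCACCCCAC, Insig1, which holds the E-box CACGTG, and Idi1 and Pmvk, whose levels ran in opposite orders across the libraries. Capitals mark these motifs and the NF-Y box CCAAT on either strand, which reads ATTGG on the other strand. The windows lie at chr13:119690101-119690400 on the plus strand for Hmgcs1, chr5:28071162-28071461 on the plus strand for Insig1, chr13:8885356-8885655 on the plus strand for Idi1, and chr3:89454291-89454590 on the plus strand for Pmvk.
Hmgcs1: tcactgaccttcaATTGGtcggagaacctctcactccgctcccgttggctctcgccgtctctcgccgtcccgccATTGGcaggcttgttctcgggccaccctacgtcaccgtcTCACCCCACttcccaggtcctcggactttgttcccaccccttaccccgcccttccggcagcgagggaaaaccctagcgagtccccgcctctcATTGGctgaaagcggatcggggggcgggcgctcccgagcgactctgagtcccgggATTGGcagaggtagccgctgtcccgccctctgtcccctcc
Insig1: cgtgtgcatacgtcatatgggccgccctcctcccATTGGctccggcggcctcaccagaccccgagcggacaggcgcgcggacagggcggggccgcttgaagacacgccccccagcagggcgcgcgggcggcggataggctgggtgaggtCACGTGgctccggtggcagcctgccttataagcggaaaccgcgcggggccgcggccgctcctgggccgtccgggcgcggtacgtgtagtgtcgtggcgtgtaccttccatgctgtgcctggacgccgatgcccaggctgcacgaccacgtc
Idi1: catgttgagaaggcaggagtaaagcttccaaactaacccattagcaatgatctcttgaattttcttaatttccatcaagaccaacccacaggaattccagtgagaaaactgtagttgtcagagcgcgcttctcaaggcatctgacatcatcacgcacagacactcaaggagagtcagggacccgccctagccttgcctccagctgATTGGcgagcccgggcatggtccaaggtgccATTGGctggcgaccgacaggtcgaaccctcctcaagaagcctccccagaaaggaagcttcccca
Pmvk: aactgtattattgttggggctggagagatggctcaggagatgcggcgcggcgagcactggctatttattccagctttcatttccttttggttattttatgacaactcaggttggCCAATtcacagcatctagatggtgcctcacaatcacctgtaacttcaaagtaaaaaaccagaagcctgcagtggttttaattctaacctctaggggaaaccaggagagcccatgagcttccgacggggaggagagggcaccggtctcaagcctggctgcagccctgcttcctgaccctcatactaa

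In the Hmgcs1 window the sterol regulatory element began 137 bases before the start, among 4 copies of the NF-Y box. On both strands, TCACCCCAC was present in 0.614% of the 27025 genes with a window, and the looser form TCACNCCAC, which contains the core form, in 1.44%. Among the 28 genes of the pathway, Hmgcs1 was the 1 gene with either form. CACGTG stood in 5 of the 28, namely Dhcr7, Hsd17b7, Insig1, Sc5d and Scap, which is 17.9%, against 8.09% of all genes. The NF-Y box stood in 22 of the 28, which is 78.6%, against 41.1% of all genes. The Sp1 box GGGCGG stood in 23 of the 28, which is 82.1%, against 38.2% of all genes. These are matches of letters in a short window and say nothing of binding. The 27025 genes were not limited to genes expressed here, so the contrast is not with a like set.

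Levels are given as FPKM, fragments per kilobase of a gene's total exon length, scaled to library size, as the authors deposited them. The values rest on 16392098 to 19465847 reads a library, recovered from the whole-number steps in the deposited values. Gm12840 itself, the targeted gene, had 5, 7 and 14 reads in the libraries labelled knockout 1 to 3 and 17, 6 and 5 reads in those labelled wild type 1 to 3. The labels overlapped, so it was not clearly lower under the knockout label, and so few reads resolve little. Which part of the gene was deleted is not stated, so reads outside that part would check nothing. The groups are therefore called the libraries labelled knockout and labelled wild type, and every direction, group mean and count of calls rests on those labels. Libraries of the same label stood apart from each other. Mitochondrially encoded genes took 1.52%, 4.19% and 0.146% of reads in knockout 1 to 3, and 0.227%, 0.311% and 2.08% in wild type 1 to 3. Summed erythroid markers stood at 756, 473 and 3512 FPKM in knockout 1 to 3, and at 4455, 2793 and 613 FPKM in wild type 1 to 3. All 9 granulosa markers were present, with Inha, the inhibin alpha subunit, at 3973 to 10808 FPKM and Foxl2, a granulosa transcription factor, at 26.2 to 48.5 FPKM. Granulosa markers, their sum mostly Inha, summed to 6420, 4661 and 9131 FPKM in knockout 1 to 3. In wild type 1 to 3 they summed to 11965, 11299 and 6388 FPKM. Oocyte markers, all 7 detected, summed to 257, 207 and 364 FPKM in knockout 1 to 3, and to 408, 360 and 227 FPKM in wild type 1 to 3. Markers of stroma summed to 88.4 to 112 FPKM under the knockout label and 60.4 to 116 FPKM under the wild-type label. Acta2 was the largest part of this sum, at 27.2 to 83.2 FPKM. Every listed stromal marker had a higher mean under the knockout label. Col1a2, Pdgfrb and Myh11 did so without overlap between the labels, beside 1.45% of all genes tested. Markers of theca summed to 49.8 to 58.3 FPKM under the knockout label and 34.1 to 79.6 FPKM under the wild-type label. Markers of endothelium summed to 13.0 to 18.8 FPKM under the knockout label and 6.35 to 15.7 FPKM under the wild-type label, and those of leukocytes to 33.9 to 52.8 FPKM under the knockout label and 34.1 to 57.1 FPKM under the wild-type label. No listed marker of these cell types was at 0 in every library. In mitochondrial share and in summed erythroid, oocyte and granulosa markers, knockout 3 stood with wild type 1 and 2. Wild type 3 stood with knockout 1 and 2. Single markers could differ from their sum, and Fst of the granulosa list and Bmp15 of the oocyte list divided the libraries alike with levels reversed. Whether the labels of the number 3 libraries were exchanged was not tested, and results without both of them are given below. The part of these differences in the results was not tested either.

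All 31 genes had reads in every library, and their levels spanned more than 2 orders of magnitude per length. Together the 31 genes took 0.562%, 0.552% and 0.454% of reads in knockout 1 to 3, and 0.413%, 0.492% and 0.600% in wild type 1 to 3. Knockout 3 thus stood with wild type 1 and 2, and wild type 3 with knockout 1 and 2. Their summed FPKM did not divide so, at 1090, 1024 and 1161 in knockout 1 to 3. In wild type 1 to 3 the sums were 1018, 1174 and 1123 FPKM. Library totals behind the deposited FPKM, given below, differed along the same split. Acly, Insig1, Msmo1 and Cyp51 were the 4 genes with means over 6 libraries above 100 FPKM, at 154, 129, 108 and 105 FPKM. Mbtps2, Nr1h3 and Acss2 had the lowest means, at 1.98, 1.12 and 0.599 FPKM. Levels could differ between neighbouring steps, as the plot of levels by role shows. Lss, which closes squalene into lanosterol, averaged 4.78 FPKM, while Sqle before it and Cyp51 after it averaged 42.1 and 105 FPKM.

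**Figure D1:**
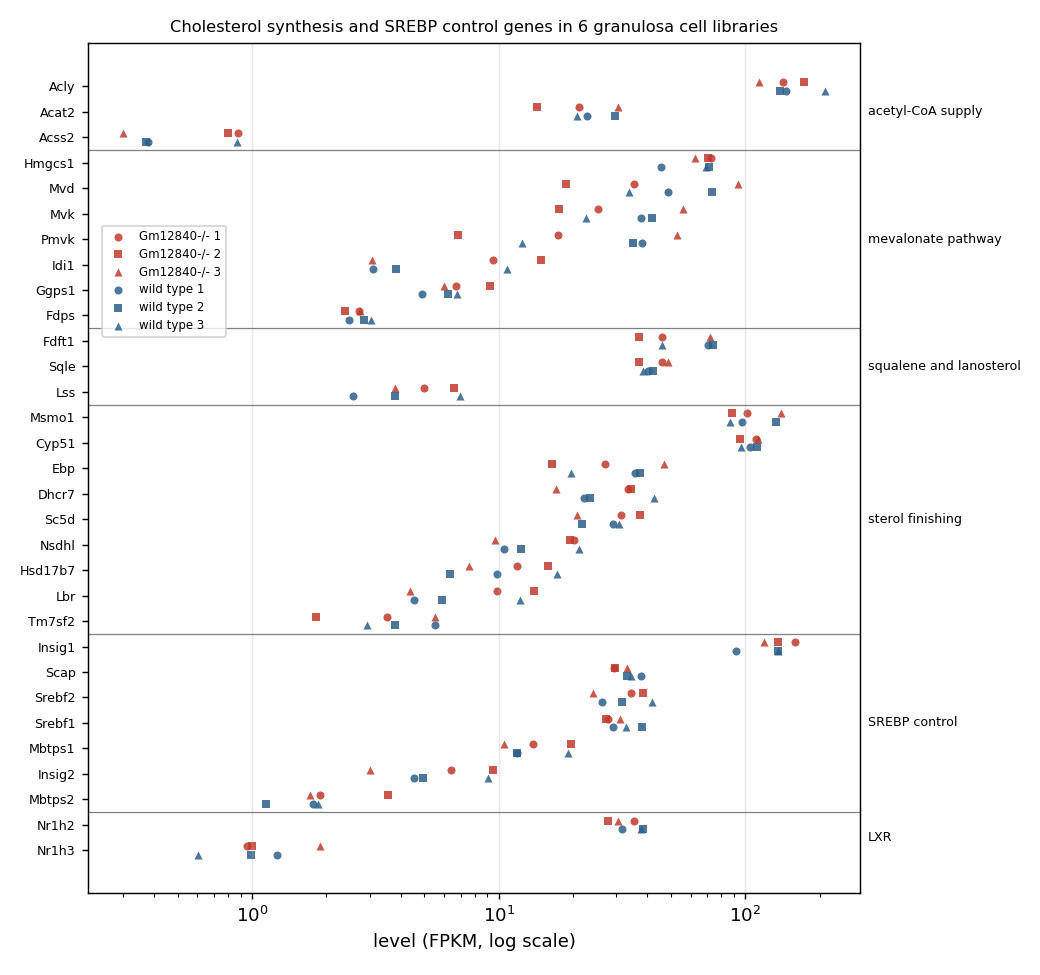
Level of each gene in FPKM on a log scale, 1 point per library, with genes ordered by mean within each role. Red points are the libraries labelled Gm12840-/- and blue points those labelled wild type, and the marker shape gives the replicate number. Red and blue points overlap in every row, and Pmvk, Mvd and Idi1 have the widest rows.

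Acetyl-CoA supply was led by Acly, which splits citrate into acetyl-CoA in the cytosol. Acly (chromosome 11, 100476353 to 100528000, minus strand, mm10) measured 143, 173 and 113 FPKM in the libraries labelled knockout 1 to 3, against 146, 139 and 210 FPKM in wild type 1 to 3. Wild type 3 was the highest and knockout 3 the lowest, and the groups overlapped. Acat2, the cytosolic thiolase that joins the first acetyl-CoA units, averaged 21.97 ± 8.11 FPKM under the knockout label and 24.3 ± 4.59 FPKM under the wild-type label (SD, n = 3 each). Acss2, which makes acetyl-CoA from acetate, averaged 0.660 ± 0.314 FPKM under the knockout label and 0.539 ± 0.283 FPKM under the wild-type label, from 47 to 192 reads a library. In the library labelled knockout 3 its 47 reads gave 0.300 FPKM, with an exact 95% Poisson interval from 0.221 to 0.399, for counting error only. Reads of this library kit carry no strand, and Acss2 shares 395 nt of exon with Gss on the opposite strand, so its level is uncertain.

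The mevalonate pathway opened with Hmgcs1, the cytosolic HMG-CoA synthase, with the highest mean of the mevalonate genes among the 31, 65.2 FPKM over 6 libraries. Hmgcs1 (chromosome 13, 119690379 to 119708260, plus strand) measured 72.8, 70.4 and 62.3 FPKM in the libraries labelled knockout 1 to 3, against 45.5, 71.1 and 69.4 FPKM in wild type 1 to 3. By deposited FPKM, and so by the authors' library scaling, wild type 1 alone was low. The other libraries lay within 62.3 to 72.8 FPKM, and the groups overlapped. Mvd, at a mean of 50.4 FPKM, was the higher of the pair in knockout 3 and in wild type 1 and 2.

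Further along the route, 4 genes split the libraries. The 31 genes do not hold every step of synthesis. Mvk phosphorylates mevalonate, Pmvk phosphorylates it again, and Mvd decarboxylates the product to isopentenyl diphosphate, which Idi1 then turns into its isomer dimethylallyl diphosphate. These 4 genes are given library by library because of their spread, a choice made after their values were seen. Mvk stood at 25.3, 17.6 and 55.7 FPKM in knockout 1 to 3, against 37.8, 41.7 and 22.5 FPKM in wild type 1 to 3. Pmvk stood at 17.4, 6.87 and 52.7 FPKM in knockout 1 to 3, against 38.2, 35.2 and 12.5 FPKM in wild type 1 to 3. Mvd stood at 35.2, 18.7 and 93.0 FPKM in knockout 1 to 3, against 48.4, 73.3 and 33.8 FPKM in wild type 1 to 3. All 3 were highest in knockout 3 and lowest in knockout 2, and wild type 3 was the lowest of its label. Idi1 ran the other way, at 9.47, 14.8 and 3.06 FPKM in knockout 1 to 3, against 3.09, 3.83 and 10.8 FPKM in wild type 1 to 3. It was highest in knockout 2 and lowest in knockout 3, and wild type 3 was the highest of its label. The highest library exceeded the lowest 7.68-fold for Pmvk, 4.96-fold for Mvd, 4.85-fold for Idi1 and 3.17-fold for Mvk.

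The branch point enzymes were low and steadier. Fdps, which makes farnesyl diphosphate, averaged 2.62 ± 0.198 FPKM under the knockout label and 2.79 ± 0.282 FPKM under the wild-type label (SD, n = 3 each), from 155 to 279 reads a library. Its value is uncertain, since 1124 nt of its exons are shared with Gm43738, a readthrough gene on the same strand that held 1 read in all 6 libraries, and how the authors counted reads of shared exons is not given in the sources used here. Ggps1, which extends farnesyl to geranylgeranyl diphosphate for protein prenylation, averaged 7.31 ± 1.69 FPKM under the knockout label and 5.98 ± 0.975 FPKM under the wild-type label.

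In squalene and lanosterol synthesis, the highest mean by deposited FPKM was that of Fdft1, the squalene synthase that commits isoprenoids to sterols. Fdft1 (chromosome 14, 63145150 to 63179578, minus strand) stood at 46.1, 37.2 and 71.7 FPKM in knockout 1 to 3, against 70.6, 74.0 and 45.8 FPKM in wild type 1 to 3. Knockout 3 lay with wild type 1 and 2, and wild type 3 with knockout 1, so the groups overlapped. Fdft1 shares 774 nt of exon with Ctsb, a lysosomal protease gene on the opposite strand at 77.2 to 138 FPKM, and reads of the shared stretch cannot be told apart. Sqle, the oxygen-dependent squalene epoxidase, averaged 44.0 ± 6.01 FPKM under the knockout label and 40.3 ± 1.98 FPKM under the wild-type label. It matched Fdft1 in knockout 1 and 2, at 46.0 and 37.2 FPKM, and stood below it in the other libraries. Lss averaged 5.13 ± 1.42 FPKM under the knockout label and 4.44 ± 2.26 FPKM under the wild-type label.

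The steps from lanosterol to cholesterol held the most even gene of the tested members by deposited FPKM, a ranking that rests on the authors' library scaling. Cyp51, the lanosterol demethylase, averaged 106 ± 9.43 FPKM under the knockout label and 104 ± 7.78 FPKM under the wild-type label, and its highest library exceeded its lowest 1.18-fold. Msmo1, the methyl sterol oxidase that acts in removing the methyl groups next, stood at 102, 88.3 and 139 FPKM in knockout 1 to 3, against 97.1, 133 and 86.3 FPKM in wild type 1 to 3. Knockout 3 and wild type 2 were high and the other 4 libraries lay at or below 102 FPKM. Its partners were less abundant, with Nsdhl at 16.5 ± 5.87 FPKM under the knockout label and 14.7 ± 5.65 FPKM under the wild-type label. Hsd17b7, a ketosteroid reductase, averaged 11.8 ± 4.12 FPKM in knockout and 11.1 ± 5.53 FPKM in wild-type libraries.

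A pair of sterol reductases can remove the same double bond, and both were low by deposited FPKM. Tm7sf2 averaged 3.63 ± 1.86 FPKM under the knockout label and 4.07 ± 1.31 FPKM under the wild-type label. It shares 532 nt of exon with Vps51 on the same strand, so its level is uncertain. Lbr, which is also an anchor of the nuclear envelope, averaged 9.35 ± 4.75 FPKM in knockout and 7.53 ± 4.06 FPKM in wild-type libraries. Tm7sf2 was highest in knockout 3 and lowest in knockout 2, and Lbr was highest in knockout 2 and lowest in knockout 3. The closing enzymes had like means but not like levels in each library. The isomerase Ebp averaged 30.1 ± 15.4 FPKM in knockout and 30.9 ± 9.77 FPKM in wild-type libraries. The desaturase Sc5d averaged 29.9 ± 8.48 FPKM in knockout and 27.2 ± 4.84 FPKM in wild-type libraries. The reductase Dhcr7, the last step of the Kandutsch-Russell route, averaged 28.3 ± 9.74 FPKM in knockout and 29.5 ± 11.5 FPKM in wild-type libraries. Ebp stood at 46.8 FPKM and Dhcr7 at 17.1 FPKM in knockout 3, while Ebp stood at 16.4 FPKM and Dhcr7 at 34.4 FPKM in knockout 2.

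SREBP control was dominated by Insig1, which is itself a known SREBP target. Insig1 (chromosome 5, 28071363 to 28078662, plus strand) stood at 159, 135 and 118 FPKM in knockout 1 to 3, against 91.5, 135 and 136 FPKM in wild type 1 to 3. Knockout 1 was the highest and wild type 1 the lowest. Insig2, the other INSIG, stood at 6.40, 9.50 and 3.01 FPKM in knockout 1 to 3, against 4.52, 4.92 and 9.01 FPKM in wild type 1 to 3. The ratio of Insig1 to Insig2 was 24.9, 14.2 and 39.3 in knockout 1 to 3, and 20.3, 27.5 and 15.1 in wild type 1 to 3. Insig1 thus exceeded Insig2 at least 14.2-fold in each of the 6 libraries, and the ratio overlapped between the labels.

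The SREBP genes themselves stood at near equal levels. Srebf1, whose product favours fatty acid genes, stood at 27.8, 27.3 and 31 FPKM in knockout 1 to 3, against 29.2, 38.3 and 32.7 FPKM in wild type 1 to 3. Srebf2, whose product favours cholesterol genes, stood at 34.5, 38.3 and 24.1 FPKM in knockout 1 to 3, against 26.3, 31.7 and 41.9 FPKM in wild type 1 to 3. The ratio of Srebf1 to Srebf2 was 0.806, 0.712 and 1.29 in knockout 1 to 3, and 1.11, 1.21 and 0.781 in wild type 1 to 3, so either gene could be the higher under both labels. Mir33, the microRNA gene inside Srebf2, is listed at 0 in all 6 libraries, and a hairpin of 69 nt is poorly captured by this kind of library.

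Scap, the escort and sterol sensor, averaged 30.7 ± 2.16 FPKM under the knockout label and 35.1 ± 2.54 FPKM under the wild-type label. Of the proteases that free SREBP, Mbtps1 stood at 13.8, 19.6 and 10.6 FPKM in knockout 1 to 3, against 11.8, 11.9 and 19.0 FPKM in wild type 1 to 3. Mbtps2, the intramembrane protease, stood at 1.88, 3.55 and 1.72 FPKM in knockout 1 to 3, against 1.77, 1.14 and 1.85 FPKM in wild type 1 to 3. Knockout 2 was high and wild type 2 low for Mbtps2, and the other 4 libraries lay within 1.72 to 1.88 FPKM. Mbtps2 shares 2867 nt of exon, 28.4% of its own, with Yy2 on the same strand, and this is the whole length of Yy2. Yy2 had 0 reads in every library. How the authors counted reads of shared exons is not given, so this 0 says little and the level of Mbtps2 is uncertain.

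Among the LXR genes, Nr1h2, the widely expressed LXR beta, stood at 35.5, 27.7 and 30.4 FPKM in knockout 1 to 3, against 31.7, 38.6 and 37.8 FPKM in wild type 1 to 3. Nr1h3, LXR alpha, known for liver and macrophages, stood at 0.957, 1.00 and 1.89 FPKM in knockout 1 to 3, against 1.26, 0.988 and 0.601 FPKM in wild type 1 to 3. Nr1h2 exceeded Nr1h3 16.1-fold to 37.1-fold in the libraries labelled knockout and 25.2-fold to 62.9-fold in those labelled wild type. The Nr1h3 values rest on 33 to 73 reads a library.

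The comparison of the design asked whether the Gm12840-/- label went with a difference in these genes. None was called. Of the 31 genes, 30 passed the filter of over 1 FPKM in at least 3 libraries, Acss2 being the exception. Limma on log2(FPKM + 1) called 0 of the 30 at a Benjamini-Hochberg adjusted p under 0.05, where 0% of the 12495 genes tested were called, and 0 by limma-voom on recovered reads. At an unadjusted p under 0.05 limma gave 0 of the 30, beside 0.728% of all genes, and limma-voom also gave 0. The groups failed to overlap in 0 of the 30, beside 3.53% of all genes. Log2 fold changes were positive in 15 and negative in 15, with a median of 1.2e-06 beside -0.04 over all genes tested.

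**Figure D2:**
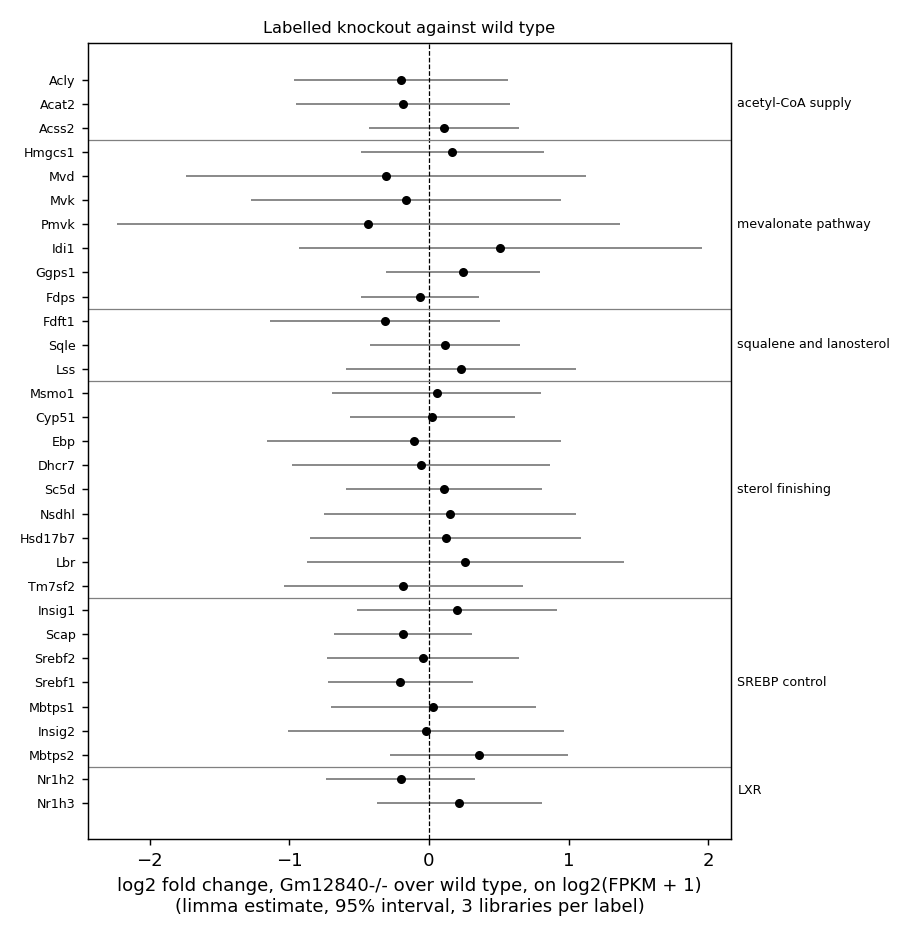
Log2 fold change of each gene, libraries labelled Gm12840-/- over those labelled wild type, on the log2(FPKM + 1) scale, as points with 95% intervals from limma (3 libraries per label). Acss2 comes from the fit without a filter, and every interval includes 0.

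Intervals were widest for the genes that split the libraries. The fold change is on the log2(FPKM + 1) scale, which understates changes of low genes. Idi1 had the highest estimate, 0.51 (SE 0.60), with a 95% interval of -0.93 to 1.95 and limma's adjusted p = 0.993, and ran from 0.084 without knockout 2 to 1.07 without knockout 3. Pmvk had the lowest, -0.43 (SE 0.75), with an interval of -2.23 to 1.36 and limma's adjusted p = 0.993, and ran from -1.15 without knockout 3 to 0.23 without knockout 2. Mbtps2 had the smallest unadjusted p, 0.225 by limma, at 0.36 (SE 0.27) and an interval of -0.28 to 1.00, and ran from 0.12 without knockout 2 to 0.50 without knockout 3. The narrowest intervals were those of Fdps, from -0.49 to 0.36, and Scap, from -0.68 to 0.31. Cyp51 lay at 0.023 with an interval of -0.57 to 0.61. The median interval reached 0.76 to either side of the estimate, beside 0.73 over all genes tested. None of the intervals shows that a gene was the same under both labels.

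For most of the 30 genes, as for most genes tested, the range within a label exceeded the difference between the labels. In 28 of the 30 genes the difference of the label means was smaller than the range within either label, which is 93.3%, beside 90.1% of all genes tested. A range tends to exceed a difference of means in any case, so this is no trait of these genes. The exceptions were Scap and Srebf1. Their differences, 0.19 and 0.20 on the log2 scale, exceeded the range of 0.18 each had among the libraries labelled knockout. The median range on the log2 scale was 0.78 among the libraries labelled knockout and 0.64 among those labelled wild type, while the median difference between labels was 0.18. The highest library exceeded the lowest by a median of 2.06-fold for the 30 genes, beside 2.32-fold for all tested genes with no library at 0. It did so by less than 1.5-fold in 6 genes, Cyp51, Fdps, Scap, Sqle, Nr1h2 and Srebf1, which is 20% beside 14.7% of all genes. It did so by more than 3-fold in 9 genes, which is 30% beside 33.3% of all genes.

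**Figure D3:**
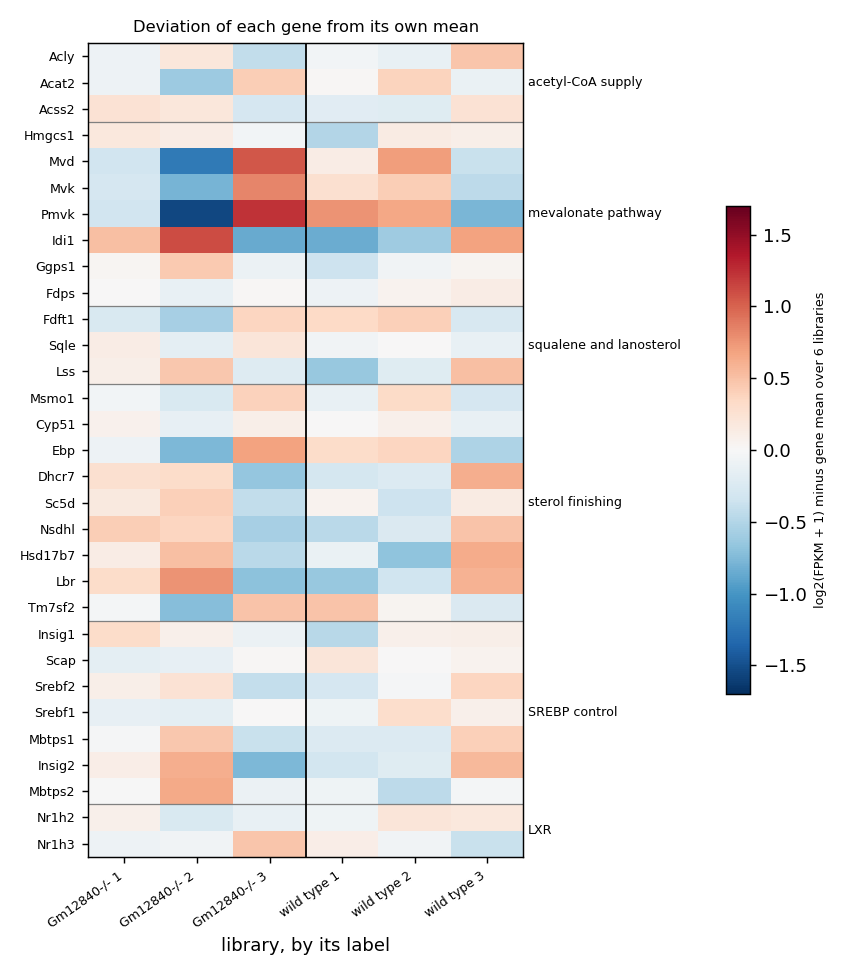
Deviation of each gene in each library from its own mean over 6 libraries, in log2(FPKM + 1), with libraries labelled Gm12840-/- left of the line and wild type right of it. Pmvk, Mvd, Mvk and Ebp are red in knockout 3 and blue in knockout 2 and wild type 3, while Idi1, Lbr, Insig2 and Dhcr7 show the opposite colours.

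Knockout 2 and knockout 3 often held the extreme values, as they did over all genes. The highest value was in one of them for 17 of the 30 genes and the lowest for 21, which is 56.7% and 70%, beside 53.5% and 59.3% of all genes. Wild type 3 was the highest library for 7 genes, as many as knockout 2. That is 23.3% for each, beside 11.9% of all genes for wild type 3 and 29.7% for knockout 2. In 8 genes knockout 3 was the highest and knockout 2 the lowest, which is 26.7% beside 16.98% of all genes: Acat2, Cyp51, Ebp, Mvd, Mvk, Pmvk, Sqle and Tm7sf2. In 5 genes knockout 2 was the highest and knockout 3 the lowest, which is 16.7% beside 13.5%: Idi1, Insig2, Lbr, Mbtps1 and Sc5d. The 8 genes came from all 4 enzyme roles, and none was a SREBP control or LXR gene. These 2 libraries also held the highest and the lowest mitochondrial share of reads, 4.19% in knockout 2 and 0.146% in knockout 3, and the part of this in the result was not tested.

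Gene length ran with this split. The 10 genes highest in knockout 3 had a median total exon length of 2610 nt, and the 7 highest in knockout 2 one of 4761 nt. Pmvk, Mvd, Ebp, Nr1h3, Acat2 and Mvk, the 6 shortest, all stood higher in knockout 3 than in knockout 2. Over the 30 genes, the difference of knockout 2 minus knockout 3 had a Pearson correlation of 0.54 and a Spearman correlation of 0.41 with log2 length. Over all 12495 genes the same correlations were 0.40 and 0.50. For wild type 3 minus wild type 1 they were 0.43 and 0.33 over the 30 genes and 0.39 and 0.47 over all genes. These are descriptions across genes that share libraries and are not independent. Several genes lay apart from the trend. Knockout 2 minus knockout 3 was 1.96 for Idi1, at 3505 nt, 1.39 for Insig2, at 3473 nt, and 0.94 for Nsdhl, at 2853 nt. It was -1.21 for Tm7sf2, at 5593 nt, -0.93 for Fdft1, at 4227 nt, and -0.65 for Msmo1, at 6144 nt.

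**Figure D4:**
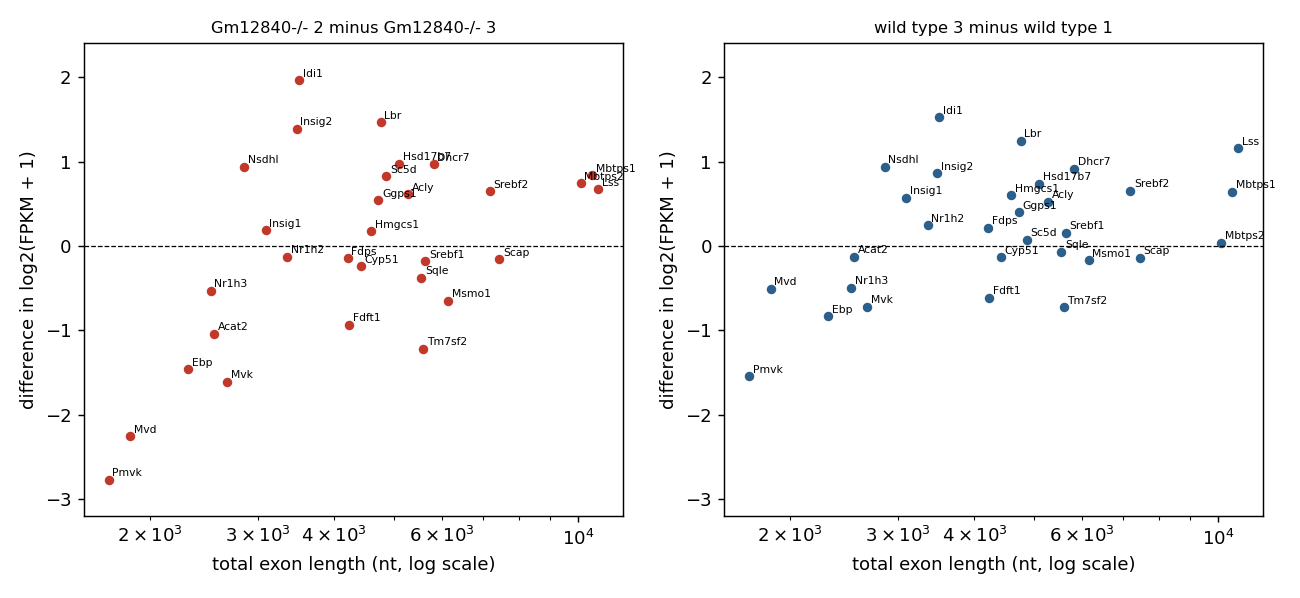
Difference in log2(FPKM + 1) between libraries of the same label against total exon length, for the 30 tested genes, knockout 2 minus knockout 3 at left and wild type 3 minus wild type 1 at right. The 6 shortest genes lie below 0 in both panels, and Idi1 and Lbr lie above 0 in both.

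Leaving out the libraries numbered 3 of both labels set knockout 1 and 2 against wild type 1 and 2. Limma then called 6 of the 30 genes, in a fit that called 27.6% of all genes. Idi1 (log2 fold change 1.53, adjusted p = 0.0194 by limma), Lbr (1.04, 0.0264) and Nsdhl (0.75, 0.0467) were higher, beside 11.3% of all genes called higher. Pmvk (-1.65, 0.0227), Mvd (-1.18, 0.0408) and Mvk (-0.88, 0.0448) were lower, beside 16.3% of all genes called lower. The share of 6 in 30 lies below the background. With all 6 libraries these 6 genes were not called, and in each of them knockout 3 lay on the side of wild type 1 and 2 and wild type 3 on the side of knockout 1 and 2. Mitochondrial shares in this subset were 1.52% and 4.19% under the knockout label and 0.227% and 0.311% under the wild-type label, so label and this difference cannot be told apart there.

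Other genes of the pathway were read from lists of fatty acid synthesis under SREBP-1, LXR targets, SREBP and INSIG turnover with cofactors, and the isoprenoid branch. Of 39 listed genes 36 were tested and limma called 0, higher or lower, with 19 positive and 17 negative estimates and 0 at an unadjusted p under 0.05. Their median log2 fold change was 0.0070, beside -0.04 over all genes tested. Mid1ip1, an activator of acetyl-CoA carboxylase, had the smallest unadjusted p, 0.0723 by limma. It stood at 57.8, 45.4 and 78.6 FPKM in knockout 1 to 3, against 89.5, 103 and 83.1 FPKM in wild type 1 to 3, and these groups did not overlap, beside 2.08% of all genes lower without overlap (log2 fold change -0.62, adjusted p = 0.993 by limma). Nus1, a subunit of the dolichol-making prenyltransferase, stood at 20.8, 19.5 and 16.1 FPKM in knockout 1 to 3, against 14.3, 12.9 and 15.8 FPKM in wild type 1 to 3, again without overlap, beside 1.45% of all genes higher without overlap (log2 fold change 0.36, adjusted p = 0.993 by limma).

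The most abundant genes of the fatty acid, isoprenoid and LXR target lists overlapped between the labels. Scd2, a fatty acid desaturase, averaged 254 ± 60.5 FPKM under the knockout label and 254 ± 67.2 FPKM under the wild-type label. Rabggtb, a subunit of the Rab prenyltransferase, averaged 47.2 ± 6.31 FPKM in knockout and 51.9 ± 2.12 FPKM in wild-type libraries. Lpcat3, a phospholipid acyltransferase under LXR, averaged 39.3 ± 6.499 FPKM in knockout and 36.9 ± 6.58 FPKM in wild-type libraries. Abca1, the cholesterol exporter, was chosen after its values were seen and stood at 10.6, 25.5 and 5.87 FPKM in knockout 1 to 3, against 6.42, 7.53 and 13.4 FPKM in wild type 1 to 3.

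The order of levels depends on the length by which reads are divided. The deposited tables use the total length of all annotated exons of a gene, and for 9 of the 31 genes this is more than 2 times the longest principal transcript in GENCODE M21. An alternative chosen after the data were seen divided by that transcript instead. Msmo1, with 6144 nt of exon and a principal transcript of 2044 nt, then led the 31 genes at 323 instead of 108 FPKM, ahead of Acly at 185 and Insig1 at 148 FPKM. Fdps stood at 8.23 instead of 2.70 FPKM, Tm7sf2 at 14.6 instead of 3.85 and Acss2 at 2.08 instead of 0.599 FPKM. Sqle, at 84.7 FPKM, then stood above Fdft1, at 65.8 FPKM, and the closing enzymes parted, with Dhcr7 at 59.7, Ebp at 40.4 and Sc5d at 29.0 FPKM. Nr1h3 became the lowest of the 31 at 1.43 FPKM. The change is the same factor in every library and leaves each gene's fold between libraries as it was.

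**Figure D5:**
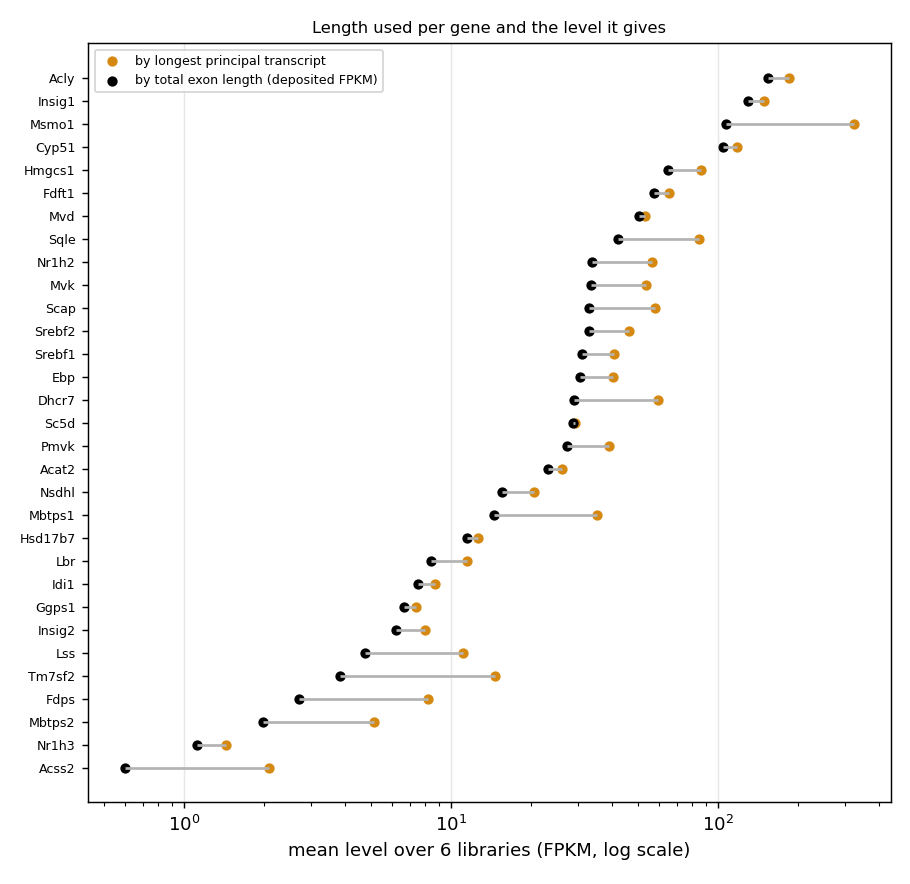
Mean level over 6 libraries on a log scale, by the deposited total exon length (black) and by the longest principal transcript (orange), with a line joining both values of a gene. Msmo1, Tm7sf2, Fdps and Acss2 have the longest lines, and Sc5d and Mvd the shortest.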

How the data were processed

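Members and gene lists were chosen with earlier results of these data known. Each library has its own table of FPKM, as deposited by the authors. Per the submitters' processing notes, HISAT2 2.0.5 was used with the mm10 build. Counter, annotation release and scaling were not given in the sources used here. The kit, TruSeq RNA per the labels' protocols, marks no strand. FPKM times exon length came out as whole reads for 100% of values (tolerance 0.01 reads), at depths of 16392098 to 19465847 reads. The deposited FPKM imply library totals of 1.12, 1.12 and 0.904 times these depths in knockout 1 to 3. In wild type 1 to 3 the totals are 0.894, 0.939 and 1.12 times these depths. Groups came from the titles, which do not say that libraries came from separate animals, so a p-value here reflects the spread among these 6 samples alone, which may be technical.

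All genes over 1 FPKM in at least 3 libraries were fitted in limma 3.58.1 (R 4.3.3) on log2(FPKM + 1) with a variance trend and genotype as the only term. Tests were two-sided, with Benjamini-Hochberg adjustment over 12495 genes and a threshold of 0.05. The fit was tried on simulated independent libraries without any split inside a label, so that trial does not cover the split seen here. The rule for genes given library by library took the most abundant of each role, both members of each pair of related regulators, and any gene called, with an unadjusted p under 0.05 or without overlap. GENCODE M21 gave exon overlaps; 30 of 31 genes had its coordinates and exon length, Tm7sf2 not in length. Alternatives were a pseudocount of 0.1, no filter, library totals, limma-voom with TMM factors, a replicate block and left-out libraries. Further genes of the pathway are not analysed here. Figures were drawn with matplotlib 3.10.9.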

Additional observations from a re-analysis of the deposited data

How the results depend on the processing

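Under a pseudocount of 0.1, no filter, library totals, limma-voom and the replicate block, limma called 0 genes, 0 of the pathway genes tested (30, or 31 without a filter) and 0 of the other pathway genes, and also 0 when any 1 library was left out. Libraries that share a number across labels deviated in opposite ways (correlations of -0.422, -0.672 and -0.894 for numbers 1 to 3). Deviations were taken from each label's own mean, and the number 3 libraries stood on opposite sides of the split described above. The correlations therefore cannot tell whether libraries of one number were paired or shared a batch. With the libraries numbered 3 of both labels left out, limma called 3451 genes, which is 27.6% of all genes tested. It called 6 of the 30 pathway genes and 8 of the 36 other pathway genes, both smaller shares than that. Of these 8 genes, 6 were higher and 2 lower, beside 11.3% and 16.3% of all genes called higher and lower. The cause of the calls in this fit was not tested. Signs of uncalled log2 fold changes turned there for Acly (0.14), Cyp51 (-0.079), Msmo1 (-0.26), Dhcr7 (0.55), Srebf2 (0.32), Insig2 (0.62) and Nr1h3 (-0.099). They turned with library totals for Dhcr7 (0.028), Srebf2 (0.042) and Insig2 (0.054). When 1 library was left out, the estimate crossed 0 for 18 genes. It ran from -0.44 to 0.076 for Acat2, -0.035 to 0.099 for Cyp51, -0.22 to 0.26 for Dhcr7, -0.48 to 0.25 for Ebp, -0.039 to 0.28 for Hmgcs1 and -0.19 to 0.46 for Hsd17b7. It ran from -0.34 to 0.36 for Insig2, -0.058 to 0.67 for Lbr, -0.038 to 0.54 for Lss, -0.19 to 0.24 for Mbtps1, -0.13 to 0.23 for Msmo1 and -0.91 to 0.21 for Mvd. It ran from -0.62 to 0.19 for Mvk, -0.042 to 0.47 for Nsdhl, -1.15 to 0.23 for Pmvk, -0.073 to 0.34 for Sc5d, -0.20 to 0.15 for Srebf2 and -0.47 to 0.13 for Tm7sf2. With 33 to 73 reads a library, Nr1h3 is the member most limited by depth.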
